A study of Homo sapiens with 5 samples.

Results

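Sites where MYC, but not HSF1, was called at promoters shared by a pair of protein-coding genes were examined in OVCAR8 cells, an established human ovarian carcinoma line. The 2 MYC peak lists were merged wherever peaks shared at least 1 bp on chromosomes 1 to 22, X and Y, which left 11756 intervals that held a peak of both replicates. A site was selected on these same lists when its interval overlapped no peak of either HSF1 list and its midpoint had, within 1 kb, the start sites of coding genes on opposite strands. In all, 595 of the 11756 intervals met this rule (5.06%, 95% Wilson interval 4.68 to 5.47), from 8677 intervals free of HSF1. A start site was the 5′ end of the gene in GENCODE 44, and the 595 sites held 592 distinct pairs and 1184 genes.

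The data were CUT&RUN libraries, in which an antibody tethers a nuclease to a chromatin protein and the released DNA is sequenced. The labels gave 2 HSF1 libraries, 2 MYC libraries and 1 IgG library. Every library came from untreated, lightly formaldehyde-fixed OVCAR8 cells, so the groups differed in the antibody alone. Nothing stated whether the replicates were separate cultures, so the spread between them may be technical, and peak lists hold no expression markers by which the line could be checked. The MYC libraries held 8265647 and 10084407 fragments and gave 25623 and 13278 peaks, so the shallower library had the longer list.

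A bidirectional promoter is a stretch of DNA from which genes on opposite strands are transcribed away from each other. Such promoters are usually rich in CpG dinucleotides and poor in TATA boxes, and they are known for housekeeping genes, among them many of DNA repair, the ribosome and mitochondria. MYC binds DNA as a dimer with MAX, with its highest affinity for the E-box CACGTG, and is known for raising genes of ribosome production, nucleotide synthesis and metabolism.

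The stretches between the start sites of 12 head-to-head pairs are shown in order to see what the shared promoters hold. Each is GRCh38, plus strand, and begins just past the start of the minus-strand gene and ends just before the start of the plus-strand gene. The first 5 were printed because an E-box lay between the genes, and the capitals mark it (CACGTG).

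ARL3/SFXN2, chr10:102714398-102714537: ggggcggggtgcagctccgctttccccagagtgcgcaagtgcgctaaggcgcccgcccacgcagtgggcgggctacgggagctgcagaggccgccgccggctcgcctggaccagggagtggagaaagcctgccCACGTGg
PPP1R13L/POLR1G, chr19:45406350-45406643: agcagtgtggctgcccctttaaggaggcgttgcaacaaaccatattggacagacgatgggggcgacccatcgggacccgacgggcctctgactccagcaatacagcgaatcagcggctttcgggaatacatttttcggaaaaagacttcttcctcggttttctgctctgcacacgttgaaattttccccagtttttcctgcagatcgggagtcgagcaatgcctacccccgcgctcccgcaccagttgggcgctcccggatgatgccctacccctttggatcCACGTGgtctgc
OSGEP/APEX1, chr14:20455090-20455190: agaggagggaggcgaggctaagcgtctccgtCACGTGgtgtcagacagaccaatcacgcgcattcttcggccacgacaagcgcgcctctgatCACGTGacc
NTHL1/TSC2, chr16:2047867-2047966: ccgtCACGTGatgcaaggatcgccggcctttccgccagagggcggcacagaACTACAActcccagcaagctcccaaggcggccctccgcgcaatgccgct
TMEM258/FEN1, chr11:61792803-61792910: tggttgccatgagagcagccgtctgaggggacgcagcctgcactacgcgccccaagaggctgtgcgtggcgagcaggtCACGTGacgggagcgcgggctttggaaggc

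In the NTHL1/TSC2 promoter the second run of capitals is the ZNF143 core ACTACAA. The E-box in ARL3/SFXN2 began 134 bases from the start of ARL3, a small GTPase of the cilium, and ended 2 bases from the start of SFXN2, a mitochondrial carrier protein. OSGEP/APEX1, which joins a tRNA-modifying enzyme to the endonuclease of base excision repair, held 2 E-boxes.

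The next 5 were among the sites with the most MYC or were textbook pairs, and had no E-box between the start sites. The capitals mark the cyclic AMP response element TGACGTCA in PMS2/AIMP2 and the NRF1 core GCATGCGC, here on the other strand, in LONP1/CATSPERD, and the other 3 held none of the motifs marked here.

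NSUN2/SRD5A1, chr5:6633292-6633426: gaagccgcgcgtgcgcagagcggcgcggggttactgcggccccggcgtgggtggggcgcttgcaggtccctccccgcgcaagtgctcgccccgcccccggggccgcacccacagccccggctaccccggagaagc
SNX5/MGME1, chr20:17968981-17969017: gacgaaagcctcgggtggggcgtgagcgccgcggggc
PMS2/AIMP2, chr7:6009131-6009254: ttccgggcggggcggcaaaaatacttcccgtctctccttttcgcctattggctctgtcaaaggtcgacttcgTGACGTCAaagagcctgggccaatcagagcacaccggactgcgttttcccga
LONP1/CATSPERD, chr19:5720573-5720636: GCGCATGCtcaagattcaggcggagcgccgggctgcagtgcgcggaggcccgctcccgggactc
PPAT/PAICS, chr4:56435616-56435740: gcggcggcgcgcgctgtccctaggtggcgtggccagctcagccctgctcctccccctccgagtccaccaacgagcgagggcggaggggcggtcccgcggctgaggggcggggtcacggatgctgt

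The last pair of promoters belonged to a ribosomal protein gene and to a histone pair, where the capitals mark CCAAT boxes on either strand.

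MED22/RPL7A, chr9:133348132-133348217: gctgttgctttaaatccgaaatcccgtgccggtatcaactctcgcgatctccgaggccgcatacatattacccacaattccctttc
H2AC25/H2BC26, chr1:228457874-228458102: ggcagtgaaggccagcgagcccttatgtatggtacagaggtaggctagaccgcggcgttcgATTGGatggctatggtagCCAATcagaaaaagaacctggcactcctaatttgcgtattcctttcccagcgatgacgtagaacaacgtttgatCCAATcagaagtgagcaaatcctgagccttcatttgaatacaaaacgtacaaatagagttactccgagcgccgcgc

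The genes were packed closely. At 358 of the 595 sites (60.2%) the start of the minus-strand gene lay to the left of the start of the plus-strand gene, so the genes stood head to head, with a median of 125.5 bp between them, and 245 of the 358 were within 200 bp. At the other 237 sites the 5′ ends overlapped, by a median of 419 bp and up to 1750 bp. The shortest head-to-head distances were 1 bp at NOXO1/GFER and 5 bp at both CIAPIN1/COQ9 and SLC7A6OS/PRMT7, and long ones were 1230 bp at SLC18B1/RPS12 and 1008 bp at TXNDC12/BTF3L4.

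**Figure D1:**
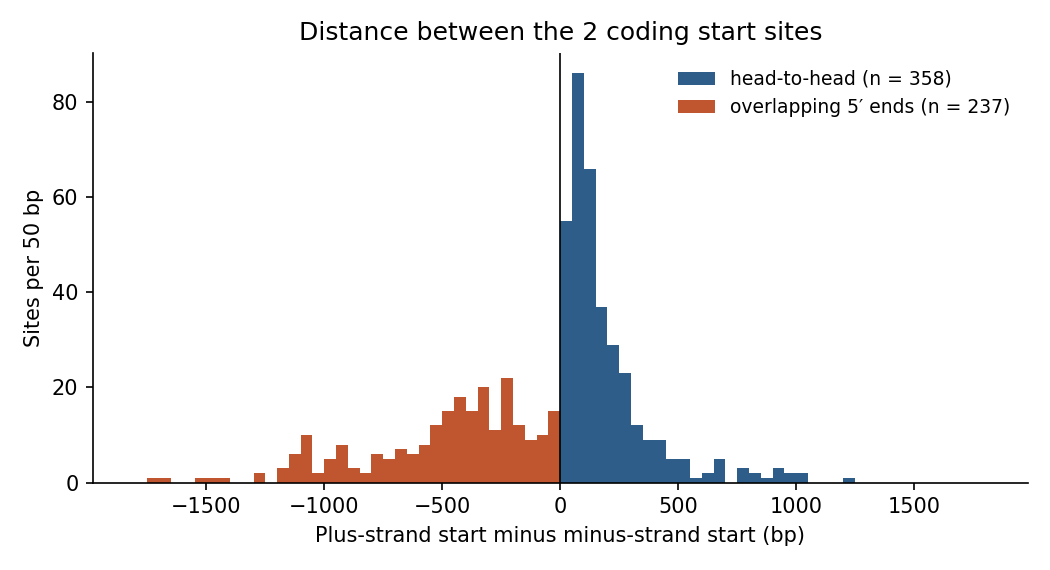
Number of sites (vertical axis, per 50 bp) by the position of the plus-strand start minus that of the minus-strand start in bp (horizontal axis). The 358 head-to-head sites pile up just right of 0, with a median of 125.5 bp, and the 237 sites with overlapping 5′ ends spread out to 1750 bp on the left.

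Gene 5′ ends can come from rarely used transcripts. When the start of the Ensembl canonical transcript was used, 407 of the 595 sites (68.4%) still had both starts within 1 kb of the midpoint, and 388 of those 407 were head to head, with a median distance of 237.5 bp. Of the 237 pairs with overlapping 5′ ends, 218 were head to head by their canonical transcripts. At ZNF598/NPW, for instance, the canonical start of NPW lay 9690 bp from the midpoint, and at HSP90AA1/WDR20 that of HSP90AA1 lay 52560 bp away. The same held for NOXO1/GFER, SLC18B1/RPS12, NUP98/PGAP2, RHCE/MACO1, STMN3/RTEL1, PFN1/ENO3, ANO10/ABHD5, HSPB6/PROSER3 and CHCHD10/MMP11, and it is stated where other such sites are described.

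MYC levels are given as fold enrichment over IgG at the summit, the scale the peak caller reported. Because the sites were chosen by these peaks, the values are a description. The median of the 595 sites was 15.5 in replicate 1 (range 5.59 to 55.4) and 11.6 in replicate 2 (range 5.18 to 43.6). Replicate 1 was higher at 464 sites, and the median ratio of replicate 1 to replicate 2 over all 595 sites was 1.27. The ranks of the sites had a Spearman correlation of 0.60 between replicates (n = 595 sites that share the same 2 libraries and IgG). Sites that held MYC at single coding promoters, with no HSF1 peak, had medians of 15.0 and 11.4 (n = 3870), so the bidirectional sites stood at 1.03 and 1.02 times that level. The merged intervals were 860 bp wide at the median against 799 bp at single promoters, and 419 of the 595 covered both start sites. Neither the distance between head-to-head start sites (Spearman correlation 0.03, n = 358) nor the GC content around the summit (−0.05, n = 595) went with the fold enrichment across sites, while wider intervals were higher (0.44, n = 595).

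**Figure D2:**
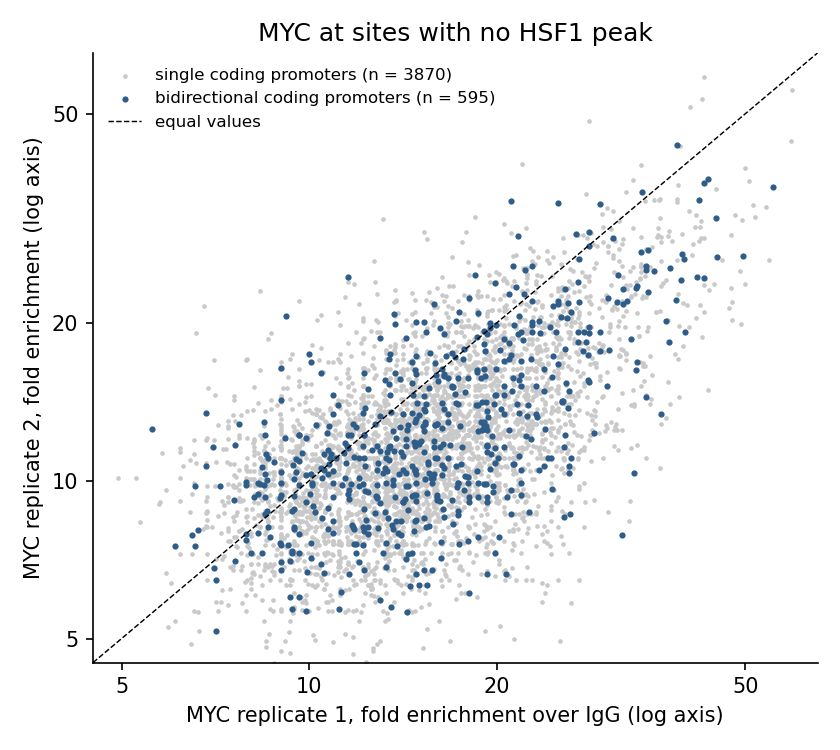
MYC fold enrichment over IgG in replicate 1 (horizontal) and replicate 2 (vertical), both on log axes, at the 595 bidirectional (blue) and 3870 single (grey) coding promoters with no HSF1 peak. The blue points lie within the grey cloud, with medians of 15.5 and 11.6 against 15.0 and 11.4, and most of them lie below the line of equal values.

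The highest site by the geometric mean of the replicates was ZNF598/NPW, at 55.4 in replicate 1 and 36.2 in replicate 2. ZNF598 is a ubiquitin ligase that senses collided ribosomes. NSUN2/SRD5A1, which pairs an RNA cytosine methyltransferase with a steroid reductase, had 38.8 and 43.6, the highest value of all 595 sites in replicate 2. SLC25A12/METAP1D followed with 43.6 and 37.6, where the canonical start of SLC25A12, the aspartate-glutamate carrier of mitochondria, lay elsewhere. SNX5/MGME1, a sorting nexin and a nuclease of mitochondrial DNA, had 43.0 and 36.8.

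METTL1, the tRNA guanosine methyltransferase, and a coding gene with no symbol (ENSG00000257921) had 42.1 and 34.3 at their promoter. ARL3/SFXN2 had 44.9 and 31.7. COA4, an assembly factor of cytochrome oxidase, and PAAF1, a factor that binds proteasomal ATPases, had 49.5 and 26.8. PMS2/AIMP2, which joins a mismatch repair protein to a scaffold of the tRNA synthetase complex, had 34.2 and 35.4. The RNA helicase DDX54 and RITA1 had 45.0 and 26.6, and LONP1, the mitochondrial protease, and CATSPERD, a sperm channel subunit, had 39.6 and 27.1. Each of these 10 sites was above the upper quartile of all sites in both replicates (20.6 in replicate 1 and 15.9 in replicate 2). The lowest were TEX14/RAD51C at 7.10 and 6.47, XRRA1/SPCS2 at 6.09 and 7.49, and TRAPPC1/CNTROB at 7.10 and 5.18. The replicates differed most at NUP98/PGAP2, where 31.7 in replicate 1 stood against 7.87 in replicate 2, a ratio of 4.02, and at RETREG3/TUBG1 (33.1 and 10.4) and RHCE/MACO1 (20.7 and 6.63).

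Most MYC summits at close pairs lay 100 to 300 bp from the middle of the shared promoter, and the replicates differed at the middle itself. At the 245 head-to-head sites within 200 bp, the summit of replicate 1 lay a median of 152.5 bp from the middle of the pair and that of replicate 2 a median of 194.5 bp. Within 50 bp of the middle were 33 summits of replicate 1 (13.5%, 95% Wilson interval 9.75 to 18.3) and 7 of replicate 2 (2.86%, 1.39 to 5.78), in a zone with 9.82% of the bases of these intervals. Replicate 2 was thus below the share of bases there, while the interval of replicate 1 reached down to it. Between 100 and 300 bp from the middle lay 140 summits of replicate 1 (57.1%, 50.9 to 63.2) and 176 of replicate 2 (71.8%, 65.9 to 77.1), against 35.5% of the bases. All such intervals cover counting error only, and sites are not replicates of a condition.

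The base content was that of CpG-rich promoters, with a median GC content of 65.2% within 100 bp of the stronger summit and an observed over expected CpG ratio of 0.833, against 68.2% and 0.825 at single promoters. By the canonical transcripts, the stronger summit lay outside both genes at 270 of the 595 sites (45.4%), in an untranslated part of exon 1 at 122 (20.5%), in coding sequence of exon 1 at 73 (12.3%) and in an intron at 130 (21.8%).

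By strand the summits were split evenly. In each replicate 121 of the 245 summits were on the side of the plus-strand gene (49.4%), and at 209 sites (85.3%) both replicates had their summit on the same side. Which gene of a pair is on the plus strand is arbitrary, so the split cannot tell whether a certain kind of gene carried the summit. Between canonical starts the picture was alike. In the 160 head-to-head pairs within 200 bp by their canonical transcripts, the summit lay a median of 165.2 bp and 202.2 bp from the middle, with 106 (66.2%) and 130 (81.2%) at 100 to 300 bp. The mean size of the sequenced fragments was 180 bp in replicate 1 and 191 bp in replicate 2, and its part in the position of the summits was not tested.

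**Figure D3:**
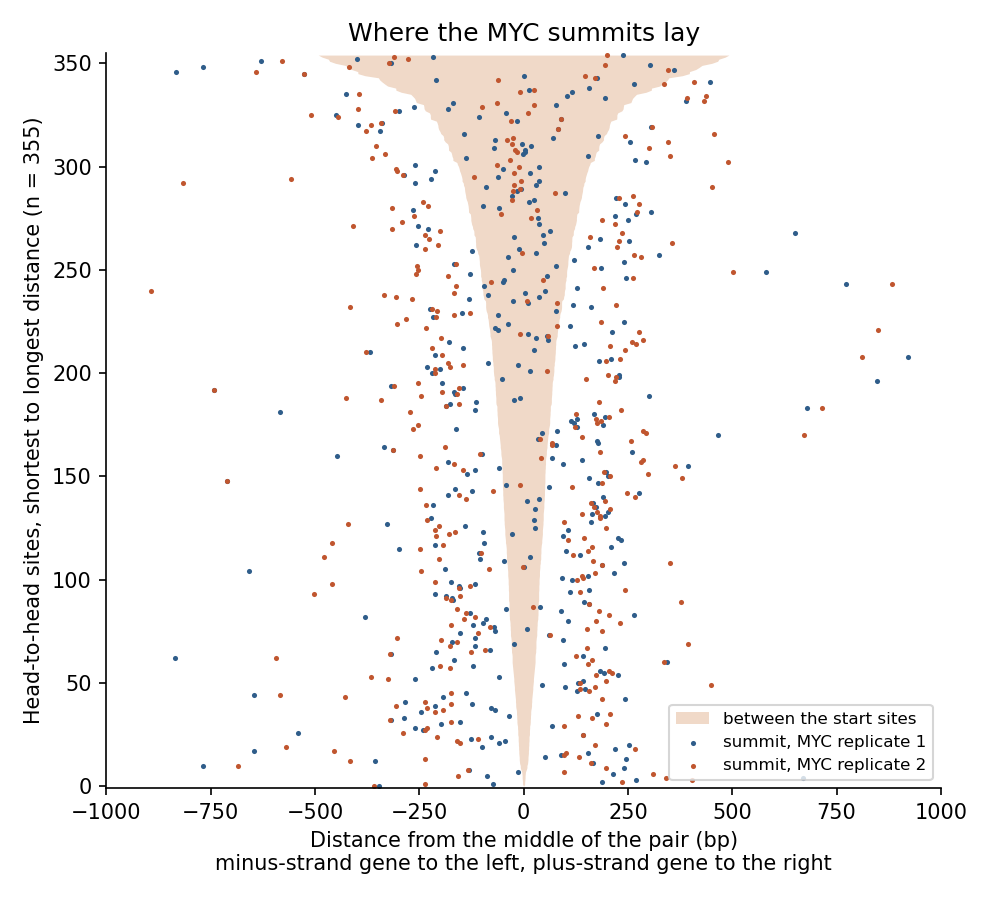
Each row is 1 of the 355 head-to-head sites up to 1000 bp apart, sorted by the distance between the start sites (shaded), with the summits of MYC replicate 1 (blue) and replicate 2 (orange) placed by their distance in bp from the middle of the pair. For close pairs the summits form a column on either side, at medians of 152.5 and 194.5 bp within 200 bp, and for wider pairs they also fall between the start sites.

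By gene 5′ ends, the mean of the replicates' summits lay between the start sites at 77 of the 358 head-to-head sites (21.5%, 17.6 to 26.1), where 17.5% of the interval bases lie. It was inside the minus-strand gene at 146 and inside the plus-strand gene at 135. The share rose with the room available, from 6 of 144 pairs within 100 bp (4.17%, against 6.17% of bases) and 18 of 101 at 100 to 200 bp (17.8%, against 12.6%) to 39 of 86 at 200 to 500 bp (45.3%, against 26.9%) and 14 of 27 beyond (51.9%, against 50.7%). This share depended on the start sites taken: between the canonical starts of the 388 head-to-head pairs lay 169 mean summits (43.6%, 38.7 to 48.5), against 29.7% of bases.

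E-boxes, the preferred letters of MYC and MAX, were densest 100 to 200 bp from the summits. Over the whole window within 100 bp they were fewer, but still denser than from 500 to 1000 bp. Around the stronger of the replicate summits, E-boxes numbered 3.11 per 100 sites and 100 bp within 100 bp of the summit and 9.41 from 100 to 200 bp, and the level fell to a mean of 1.61 from 500 to 1000 bp. In bins of 50 bp the densest was 100 to 150 bp from the summit, with 63 E-boxes at 595 sites. The bin within 50 bp of the summit held 8, or 1.34 per 100 sites and 100 bp, which was below the mean from 500 to 1000 bp. From the summits of replicate 1 this bin had 2.02 against a mean of 1.78 from 500 to 1000 bp. From those of replicate 2 it had 0.840 against 1.56. Taken from each replicate's own summit, 43 E-boxes were within 100 bp and 103 at 100 to 200 bp in replicate 1, and 40 and 102 in replicate 2, which is 2.40 and 2.55 times as many in the outer window. At single coding promoters the same ratios were 1.29 and 1.93.

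**Figure D4:**
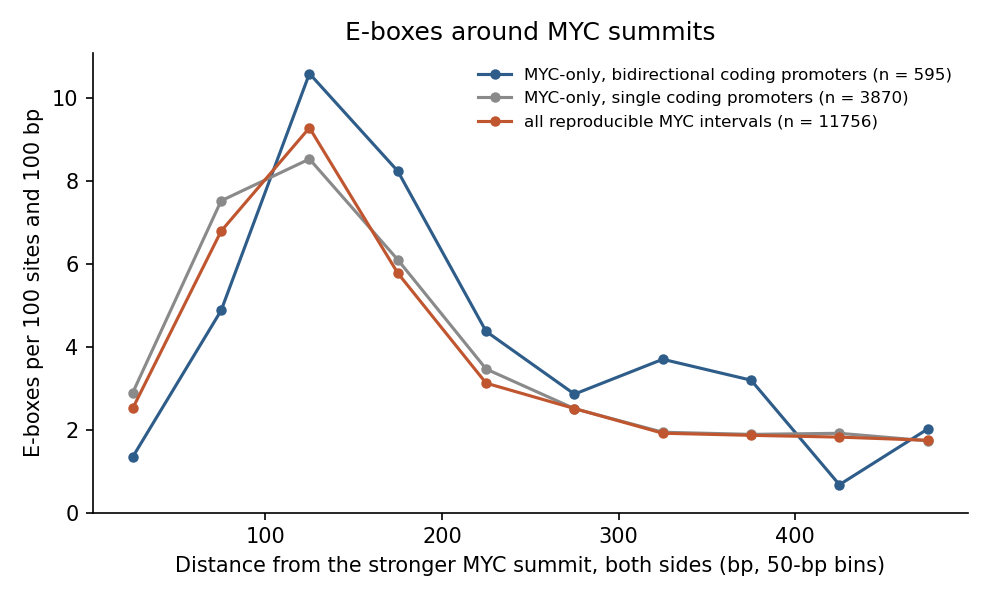
E-boxes (CACGTG) per 100 sites and 100 bp (vertical axis) by distance from the stronger MYC summit in bins of 50 bp (horizontal axis), for the 595 bidirectional sites (blue), 3870 single coding promoters (grey) and all 11756 MYC intervals (orange). All 3 curves are highest at 100 to 150 bp, and the blue curve is lowest of the 3 next to the summit.

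The choice of window therefore decided how the E-box share compared with single promoters. Within 100 bp of the stronger summit, 34 of the 595 sites held an E-box (5.71%, 4.12 to 7.88) against 360 of 3870 single promoters (9.30%), a difference of −3.59 percentage points (95% Newcombe interval −5.45 to −1.25). Around the summits of replicate 2 alone the difference was −0.758 points (−2.63 to 1.60), and around those of replicate 1 it was −3.25 (−5.21 to −0.825). Within 200 bp, a window added after the profile was seen, 21.5% of the sites held an E-box and the difference was −0.270 points. Over the whole interval 198 sites held one (33.3%, 29.6 to 37.2) and the sign of the difference turned, to 1.34 points above single promoters. Of the windows of the same length around all 20033 coding start sites, 5.88% held an E-box. Those windows lie around start sites and not around summits, so this is not a like comparison.

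Between the start sites, E-boxes were denser than in the genes on either side. In the 393 annotated head-to-head pairs up to 1 kb apart that were at such a site, the stretch between the starts held 46 E-boxes, or 6.29 per 10 kb, against 3.12 per 10 kb in the first 200 bp of the genes and 2.71 from 200 to 500 bp. In the 149 pairs with no MYC peak in either list the stretch between the starts held 7 E-boxes, or 2.35 per 10 kb, and the genes held 1.51 and 1.57. At least 1 E-box between the starts was found in 42 of the 393 pairs (10.7%, 8.004 to 14.1) and in 7 of the 149 (4.70%, 2.29 to 9.38), with medians of 126 bp and 122 bp between the starts. Within 100 bp of the middle of pairs up to 1 kb apart, overlapping pairs included, the E-box share was 8.74% of 618 pairs at such sites and 3.76% of 266 pairs without MYC, a difference of 4.98 points (1.37 to 7.995). It was not particular to the E-box: the difference was 7.05 points (2.25 to 11.2) for CACGCG and 9.18 (2.07 to 16.3) for GGGCGG. For the other motifs compared, the interval spanned both signs. The pairs without MYC also had a lower median observed over expected CpG ratio, 0.755 against 0.884. The part of this base content in the E-box difference was not tested.

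The 39 head-to-head sites with an E-box between the start sites had median fold enrichments of 19.2 and 15.1, against 14.8 and 11.3 at the 319 sites without. Most of their summits lay away from the E-box. The median distance from these E-boxes was 156 bp in replicate 1 and 182 bp in replicate 2, and 9 and 3 of 43 distances were within 100 bp, where the 42 distinct E-boxes gave 43 distances because SDF4/B3GALT6 had 2 intervals. At ARL3/SFXN2 the summits lay 162 and 156 bp from the E-box printed above. At TMEM258/FEN1, with 14.8 and 9.91, where FEN1 is the flap endonuclease of lagging-strand synthesis, they lay 127 and 132 bp away. At NTHL1/TSC2, with 25.9 and 21.8, which pairs a DNA glycosylase with the mTORC1 inhibitor tuberin, they lay 121 and 206 bp away.

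The other motifs were searched as fixed letters on both strands within 100 bp of the stronger summit. GC boxes (GGGCGG) were in 49.6% of the sites against 56.0% of single promoters, a difference of −6.42 points (−10.7 to −2.11), and in 47.0% of all coding start windows. NRF1 cores (GCATGCGC) were in 4.03% against 2.48%, a difference of 1.55 points (0.138 to 3.50), and in 2.995% of all start windows. ZNF143 cores (ACTACAA) were in 2.69% against 1.42%, a difference of 1.27 points (0.157 to 2.93), and in 1.92% of all start windows. For the E-box variant CACGCG, the ETS core CCGGAAG, the YY1 core ATGGCGGC, CCAAT, TGACGTCA, the BANP core CTCGCGAG and TATAAA the interval of the difference held 0. These windows followed the summits, whose place differed between the classes. In replicates 1 and 2, summits lay downstream of the nearest start at 63.2% and 74.1% of the sites. At single promoters it was 53.3% and 62.8%. Around the middle of the 618 pairs up to 1 kb apart at such sites, GGGCGG was in 60.7%. The part of window position in the differences was not tested. TATAAA was in 2.35% of the sites and 1.58% of single promoters, both around MYC summits. It was in 7.09% of all start windows. For every motif here, those windows lie around start sites and not around summits, so they are not a like comparison. The heat shock element, as 3 alternating pentamer cores, was near 2 of the 595 summits, at STMN3/RTEL1 and MED19/ENSG00000288534, and in 0.235% of all start windows.

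To see how much of the genome's stock of such promoters was covered, all 1616 coding pairs with 5′ ends within 2 kb on opposite strands were listed. A MYC interval of both replicates was at 884 of them (54.7%, 52.3 to 57.1), with no HSF1 peak at 651 (40.3%) and with one at 233 (14.4%). The share was 71.3% in MYC list 1 and 56.1% in list 2. Of all 20033 coding genes, 32.9% had a MYC interval within 1 kb of the start, and this was 58.6% for the 3108 genes of pairs and 28.1% for the 16925 genes with no partner, a difference of 30.4 points (28.6 to 32.3). An interval near both starts counts for both genes. CpG-rich starts (GC of at least 50% and observed over expected CpG of at least 0.6 within 100 bp) made up 78.6% of the genes of pairs and 55.7% of the others. Among CpG-rich starts the shares were 64.4% of 2442 and 43.8% of 9433, and among the remaining starts they were 37.4% of 666 and 8.46% of 7492.

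**Figure D5:**
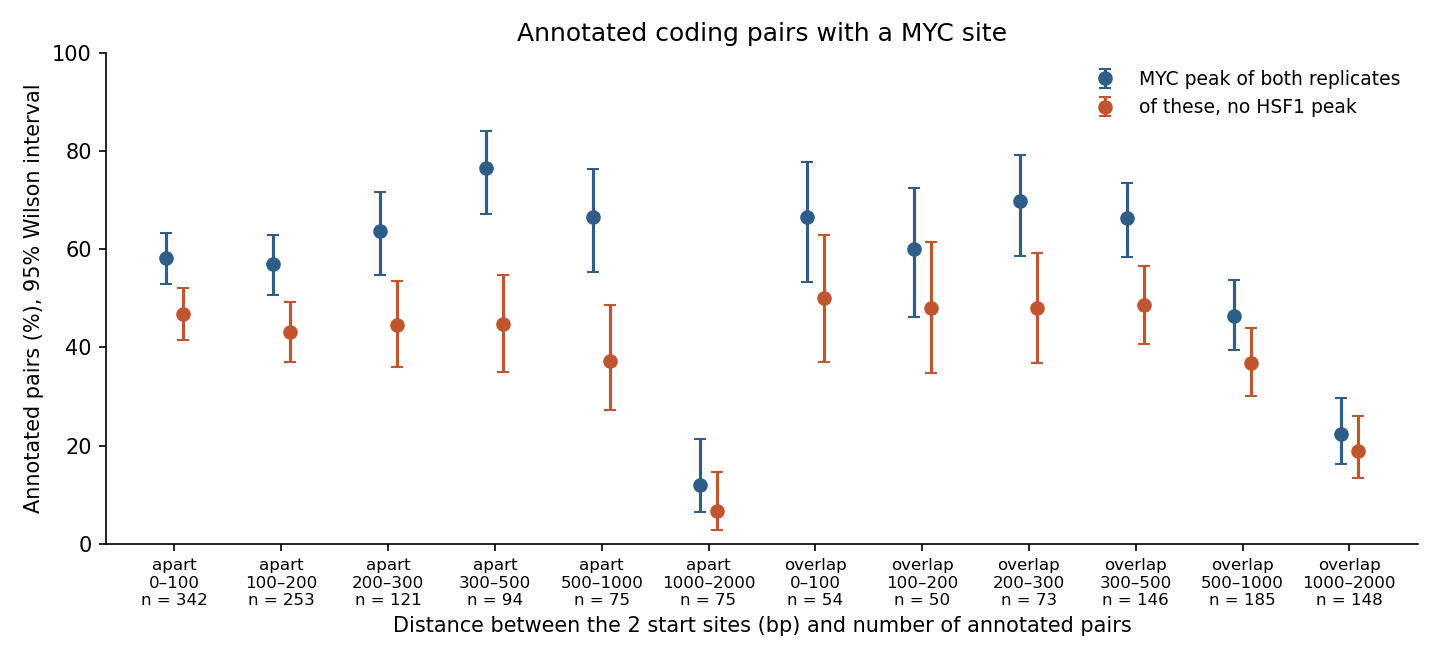
Share of the annotated coding pairs (vertical axis, percent with 95% Wilson intervals) that had a MYC interval of both replicates (blue) and of these no HSF1 peak (orange), by the distance between the start sites in bp for pairs apart (head to head) and pairs with overlapping 5′ ends. Head-to-head pairs 300 to 500 bp apart have the highest share, 76.6%, and those over 1000 bp the lowest, 12%.

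The share with MYC was 58.2% of 342 head-to-head pairs within 100 bp, 56.9% of 253 at 100 to 200 bp, 63.6% of 121 at 200 to 300 bp, 76.6% of 94 at 300 to 500 bp and 66.7% of 75 at 500 to 1000 bp. Farther apart it fell to 12% of 75, where the limit of 1 kb from the midpoint leaves little room. The share with MYC and no HSF1 peak stayed between 37.3% and 46.8% up to 1000 bp, while the share that also had HSF1 went from 11.4% (8.45 to 15.2) within 100 bp to 31.9% (23.4 to 41.9) at 300 to 500 bp. Pairs with overlapping 5′ ends had no steady rise, and their intervals were wide. HSF1 was at 16.7% of 54 such pairs within 100 bp (9.02 to 28.7) and 12% of 50 at 100 to 200 bp (5.62 to 23.8). It was at 21.9% of 73 at 200 to 300 bp (14.0 to 32.7) and 17.8% of 146 at 300 to 500 bp (12.5 to 24.8). At 500 to 1000 bp it was at 9.73% of 185 (6.24 to 14.9). Of all MYC intervals 26.2% overlapped an HSF1 peak, and at bidirectional coding promoters it was 213 of 808 (26.4%, 23.4 to 29.5). At single coding promoters it was 956 of 4826 (19.8%, 18.7 to 21.0). Of the 213, 63 overlapped an HSF1 interval seen in both replicates. MYC medians at the 213 were 20.8 and 13.2, above the 15.5 and 11.6 of the sites without HSF1. The merged MYC intervals of the 213 were also wider, 1068 bp at the median against 860 bp. An overlap needs only 1 shared bp, and the part of width in the HSF1 shares was not tested.

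Gene groups were defined by symbol and read against 38.1%, the share of all 3108 genes of annotated pairs that were in such a site. Of the genes of DNA repair and replication, 40 of 73 were in a site (54.8%, 43.4 to 65.7). The highest after PMS2 was AK6/RAD17 at 34.9 and 27.5, where RAD17 loads a checkpoint clamp onto DNA. MCM7/AP4M1, with a subunit of the replicative helicase, had 27.4 and 17.7.

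Genes of ribosomes and of their assembly had shares above 38.1%, with lower bounds between 37.5% and 43.0%. Nucleolar factors of ribosome biogenesis were in a site at 18 of 30 genes (60.0%, 42.3 to 75.4), and at medians of 20.2 and 15.3 they were the group with the highest replicate 2 level apart from splicing factors. NOL8/CENPP, a nucleolar protein and a centromere protein, had 37.7 and 18.3. BOP1/HSF1 had 24.998 and 21.7 with 153 bp between the starts. BOP1 is a factor of the large ribosomal subunit, and its partner is HSF1 itself, the heat shock regulator that the other antibody was raised to. The promoter of HSF1 thus had MYC in both lists and no HSF1 peak in either. The authors described HSF1 and MYC as amplified in OVCAR8, and the part of copy number in the level at this site was not tested. HSF2BP/RRP1B had 21.2 and 25.6.

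Cytosolic ribosomal protein genes were in a site at 14 of 22 (63.6%, 43.0 to 80.3), the highest being PIDD1/RPLP2 at 24.3 and 19.6, RPL6/PTPN11 at 21.7 and 20.6, and MED22/RPL7A at 19.1 and 19.3. The canonical starts of PIDD1 and RPL6 lay over 1 kb away. Mitochondrial ribosomal protein genes were in a site at 16 of 29 (55.2%, 37.5 to 71.6), with GGA3/MRPS7 at 34.7 and 25.1 and MRPL27/EME1 at 25.9 and 20.4, and MRPL46/MRPS11 joined 2 such genes at 1 promoter. Translation factors were in a site at 9 of 15 (60.0%, 35.7 to 80.2), with ATP6V1D/EIF2S1, a subunit of initiation factor eIF2, at 27.7 and 18.4. tRNA synthetases and related enzymes were in a site at 8 of 14 (57.1%, 32.6 to 78.6), with LYRM4/FARS2 at 22.0 and 18.6. RNA polymerase subunits were also at 8 of 14 (57.1%, 32.6 to 78.6), with PPP1R13L/POLR1G, a subunit of polymerase I, at 39.9 and 26.4. The intervals of translation factors, synthetases and polymerase subunits each held 38.1%.

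Respiratory chain genes were in a site at 24 of 51 (47.1%, 34.1 to 60.5), among them COA4 and NDUFS1/EEF1B2, a complex I subunit with an elongation factor, at 26.9 and 23.9. Genes listed as splicing factors were in a site at 10 of 23 (43.5%), among them EFTUD2/CCDC103 at 31.8 and 23.2. The list also took in LSM1, a subunit of an mRNA decay complex rather than of the spliceosome, at LSM1/BAG4 with 39.4 and 24.1. Genes of the cell cycle were near the average at 12 of 34 (35.3%, 21.5 to 52.1), with CCNE2/NDUFAF6, where CCNE2 is cyclin E2 and the canonical start of NDUFAF6 lay far off, at 33.96 and 27.3. Tubulin genes were at 4 of 10, proteasome genes at 4 of 12 and mitochondrial import genes at 2 of 9.

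Heat shock and J-domain proteins and other chaperone genes were in a site at 10 of 33 (30.3%, 17.4 to 47.3), with CORO7/DNAJA3 at 33.5 and 23.5 and HSP90AA1/WDR20 at 27.0 and 21.9, both by starts other than the canonical one of CORO7 and HSP90AA1. Sites that overlapped HSF1 were left out by the rule, which bears on this count. Zinc finger genes were at 20 of 63 (31.7%, 21.6 to 44.003), and 5 of their 15 sites joined 2 zinc finger genes. TMEM genes, named only for a membrane span, were at 11 of 52 (21.2%, 12.2 to 34.03), the lowest share of any group, and its interval lay below 38.1%.

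Histone genes were at 12 of 33 (36.4%, 22.2 to 53.4) in 7 sites, and 5 of these were shared by an H2A and an H2B gene. These 5 were low in MYC, from H2AC25/H2BC26 at 12.3 and 9.56 and H2AC15/H2BC15 at 12.9 and 8.14 to H2AC14/H2BC14 at 6.57 and 7.52, and each was below the median of the 595 sites in both replicates. The median over the 7 histone sites was 12.3 and 7.55, below the lower quartile of the 595 sites in replicate 2 (9.38) and near it in replicate 1 (12.1). H3-3B/UNK, with a replacement histone whose canonical start lay 5209 bp away, had 15.3 and 20.04.

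Of 20 textbook pairs of divergent genes, 8 were such sites. PPAT/PAICS, whose products catalyse steps of purine synthesis, had 21.3 and 19.8, OSGEP/APEX1 had 22.7 and 21.9, and SARS2/MRPS12, a mitochondrial synthetase and ribosomal protein, had 21.0 and 17.4. PRKDC/MCM4, a DNA-dependent kinase and a helicase subunit, had 15.1 and 11.9. Their gene 5′ ends were 7 bp apart, but the canonical starts lay 613 and 192 bp from the midpoint. The BRCA2 promoter, which overlaps ZAR1L, had 14.8 and 10.3. TMEM258/FEN1 and TEX14/RAD51C were also among the 8. The levels of the pairs named here ran from below the lower quartile of the sites to above the upper one.

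ATM/NPAT, BRCA1/NBR1 and TK1/AFMID had MYC in both lists but overlapped an HSF1 peak, which was in HSF1 list 1 only, at a fold enrichment between 3.25 and 4.58. HARS1/HARS2, SIRT3/PSMD13 and CHEK2/HSCB had a peak in MYC list 1 alone, and SURF1/SURF2 in neither. COL4A1/COL4A2 had a MYC interval of both lists that did not meet the limit of 1 kb to both starts or stood nearer to another pair. HSPD1/HSPE1 and PSMB9/TAP1 had 5′ ends over 2 kb apart in this annotation.

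At the limit of 1 kb, PFN1/ENO3 was the last site inside, with its farther start 997 bp from the midpoint and 9.01 and 7.55, and ALYREF/ANAPC11 the first outside, at 1004 bp with 10.8 and 7.06. ANO10/ABHD5 (995 bp, 21.2 and 10.8) and HSPB6/PROSER3 (1005 bp, 10.3 and 10.7, a second interval at a pair whose other interval was a site) stood next on either side. The nearest HSF1 peak that did not overlap was 131 bp from CHCHD10/MMP11, which had 25.6 and 11.6, then 194 bp from IFT20/TNFAIP1 and 226 bp from FBXO8/CEP44. Only 7 of the 595 sites had an HSF1 peak within 1 kb, and the median distance was 91804 bp. At the threshold of MYC, the smallest −log10 p was 10.5 in replicate 1, at RECQL4/LRRC14, and 10.6 in replicate 2, at C9orf78/USP20 and TIMM8B/SDHD.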

How the data were processed

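CUT&RUN was run on OVCAR8 cells with antibodies to HSF1 (2 libraries), MYC (2) and IgG (1), and samples were grouped by the antibody in the labels. The authors aligned the reads with Bowtie2 and called peaks per library against 1 IgG library with MACS (version 2.2.9.1 in the file headers), at p of 1e-04 for HSF1 and 1e-10 for MYC. The deposited lists give each peak's position (GRCh38), pileup signal at the summit, −log10 p-value and fold enrichment, a ratio to IgG, all made by the authors. Fragments after filtering numbered 8265647 to 10084407 per MYC or HSF1 library and 9306942 for IgG. A peak missing from a list means only that none was called at that depth and threshold.

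Peaks were merged, annotated with GENCODE 44 gene 5′ ends and searched for motifs on both strands of GRCh38 in Python 3.11.15 with pandas 2.3.3, numpy 2.4.6, scipy 1.17.1 and pysam 0.24.0. Figures were drawn with matplotlib 3.10.9. The steps were checked on simulated data. Shares have 95% Wilson intervals and differences Newcombe intervals, for counting error only. Because the lists hold no counts, no test between groups was run.

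The members and lists were chosen with earlier results of these data known. Named sites were the 10 highest by geometric mean fold enrichment, 20 textbook pairs, the shortest and longest distances, the sites next to each limit, the lowest and the most different between replicates, and up to 3 per gene group. Sequences were chosen from these. A few sites that this rule names are not reported here. MCM7/AP4M1, MRPL46/MRPS11, H2AC14/H2BC14 and the sites with a heat shock element were added after their values were seen. The list of translation factors was trimmed of unrelated genes with the same prefix after the sites were seen. Alternatives were other thresholds, distances, overlaps, start sites and motif windows, and leaving out a replicate.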

Additional observations from a re-analysis of the deposited data

How the results depend on the processing

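No paired analysis was possible because the peak lists give no test. The number of sites ran from 421 with MYC p of 1e-20 to 885 with a peak in either MYC list, within 1.5 times of 595, and from 647 to 850 with 1 replicate left out. The share of annotated pairs with MYC was 72.8% with either list, 40.7% at 1e-20 and 41.2% within 500 bp, and 54.7% to 71.3% with 1 replicate left out. The share of sites with an E-box near the summit was 5.42% with either list, 5.23% when HSF1 had to be in both lists, 5.78% with HSF1 kept 1 kb away, 6.41% at 1e-20, 6.34% with every transcript start, 4.92% within 500 bp, 6.49% within 2 kb, 5.56% at the mean summit, 1.34% within 50 bp, 21.5% within 200 bp, 33.3% over the interval and 20.5% with CACGCG counted too, and 5.38% to 6.05% with 1 replicate left out. The share of summits between the starts was 31.9% with every transcript start and 43.5% with canonical starts, and 15.3% to 29.8% with 1 replicate left out. The median fold enrichment, the geometric mean of the replicates, was 13.4, was 15.4 at 1e-20 and ran from 10.9 to 13.7 with 1 replicate left out. The median distance between starts, overlaps included, was 207 bp. It was 197 bp with either list, 224 bp with HSF1 in both lists, 185 bp with every transcript start, 147 bp within 500 bp, 264 bp within 2 kb, 203 bp at the mean summit and 243.5 bp with canonical starts, and 198 to 221 bp with 1 replicate left out. The difference in E-box share from single promoters was −2.37 points with either list, −1.32 within 50 bp and −0.270 within 200 bp, and turned to 1.34 over the interval, and it was −3.81 to −0.697 with 1 replicate left out. The cause was not tested. The ratio of MYC levels to single promoters stayed between 1.00 and 1.07. The canonical starts and the 200 bp window were chosen after seeing the data.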

Other observations

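Some chromosomes had a larger share of their annotated pairs in a site than others. Over all chromosomes, 651 of the 1616 annotated pairs were in a site (40.3%). On chromosome 22 it was 18 of 31 pairs (58.1%, Wilson interval 40.8 to 73.6). On the X chromosome it was 9 of 45 (20%, 10.9 to 33.8). The share was 51.4% on chromosome 2 (42.0 to 60.8) and 30.1% on chromosome 19 (23.1 to 38.3). On every other chromosome the interval held 40.3%, and the chromosomes named were picked from all of them. The shares are counts from the same 2 peak lists, with no test of the difference between chromosomes.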
